A study of Homo sapiens with 4 samples.

Results

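The CUL2-VHL ubiquitin ligase is the cellular machine that the degrader ACBI1 borrows, and 9 genes of that machine were read out by their symbol in each count file: VHL, ELOB, ELOC, CUL2, RBX1, CDC34, UBE2R2, NEDD8 and CAND1. All 9 were found among 61228 listed genes, and all 9 passed the filter on low counts, which left 19159 genes for testing. H1792 is an established human lung cancer cell line, labelled as wild type in genotype. Cells were kept for 96 h with DMSO, the solvent control, or with ACBI1 at a dose the labels write as 1 mM, an unusually high unit for such a compound that could not be checked from counts. Each arm had 2 libraries, numbered 1 and 2. Nothing in the labels says that the libraries of an arm came from separate cultures, so p-values measure only the spread between these libraries, which may be technical. ACBI1 is a PROTAC, a molecule that binds a target protein at one end and VHL at the other. Its targets are the chromatin remodelling proteins SMARCA2, SMARCA4 and PBRM1, and the comparison asks here whether the transcripts of the borrowed ligase were altered in cells that had received the compound. Proteins were not analysed here.

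In a cullin ligase, a scaffold protein holds a substrate receptor at one end and a RING protein at the other, and the RING protein brings in an E2 enzyme loaded with ubiquitin. VHL is the receptor. In normal physiology it recognises the hydroxylated alpha subunits of the hypoxia-inducible factors (HIF), which are then destroyed by the proteasome. Elongin B and elongin C, encoded by ELOB and ELOC, join VHL to the scaffold CUL2, and RBX1 is the RING protein. CDC34 and UBE2R2 are paralogous E2 enzymes that extend ubiquitin chains. The ligase is switched on when the ubiquitin-like protein NEDD8 is attached to the cullin, and CAND1 exchanges receptors on cullins that carry no NEDD8.

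None of the 9 transcripts passed the test. Gene counts summed to between 64281850 and 86010100 per library, the members held 730 to 17657 counts each, and levels are given as CPM, the count per 1000000 after TMM scaling between libraries. In bulk RNA, fewer cells expressing a gene and less RNA per cell cannot be told apart. By edgeR's quasi-likelihood test with Benjamini-Hochberg adjustment over all genes, 0 of 9 had an adjusted p under 0.05, where 17.4% of all tested genes did. At an unadjusted p under 0.05 the number was 1 of 9, CDC34, against 33.9% of all tested genes. DESeq2 called 1 of the 9, again CDC34, against 23.5% of all genes, and limma-voom called 0 against 17.3%. The median log2 change of the 9, ACBI1 against DMSO, was 0.05, beside 0.01 over all tested genes, and the median size of the change without its sign was 0.17, beside 0.47. For all 9, the 95% interval of the log2 change lay between -1 and 1, so that a 2-fold change lay outside it in either direction. The same held for 36% of tested genes, and for 6524 of the 11160 with a mean of at least 5 CPM, as each member has.

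**Figure D1:**
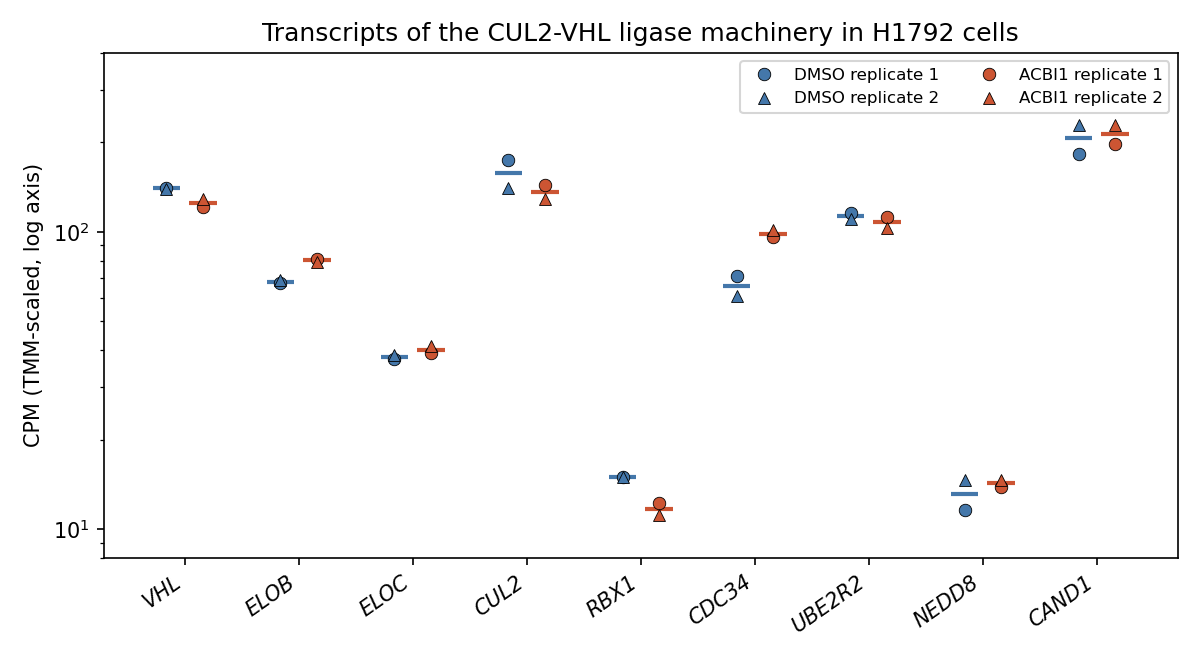
Level of each member in each library, in TMM-scaled CPM on a log axis; circles are replicate 1, triangles replicate 2, and short bars the mean of the 2 libraries of an arm. CDC34 shows the widest gap between DMSO (61.0 and 70.9 CPM) and ACBI1 (96.0 and 101 CPM).

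The receptor was abundant in both arms. VHL, on chromosome 3 (chr3:10141008-10152220, plus strand, GRCh38, GENCODE 29), stood at 141 and 140 CPM with DMSO and at 121 and 129 CPM with ACBI1. The ACBI1 libraries were both lower, and the groups did not overlap, as was the case for 63.2% of all tested genes and for 5 of the 9 members. The log2 change was -0.17 (SE 0.15, edgeR adjusted p 0.489), and its 95% interval ran from -0.54 to 0.20, which in linear terms is a level between 0.690 and 1.15 times that with DMSO. Among 172 genes of the related lists, MDM2 and PSMB4 lay nearest to VHL in pattern over the 4 libraries, with a root mean square difference of 0.0419 and 0.0444 in centred log2 CPM. The VHL-like gene VHLL had at most 2 counts in a library and was not tested.

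The elongin adaptors had slightly higher means with ACBI1. ELOB had 67.1 and 68.9 CPM with DMSO and 80.9 and 79.4 CPM with ACBI1, a log2 change of 0.24 (SE 0.15, edgeR adjusted p 0.304, 95% interval -0.12 to 0.59). ELOC had 37.3 and 38.6 CPM with DMSO and 39.2 and 41.2 CPM with ACBI1, a log2 change of 0.08 (SE 0.15, adjusted p 0.746, 95% interval -0.28 to 0.45). Both ACBI1 libraries lay above both DMSO libraries for each adaptor, by less than the test requires. The exons of SRRM2, on the opposite strand, cover 23.3% of the coding length of ELOB, and the strand setting of the counting is not given, so part of its reads may be missing or foreign. ELOC has 34 listed pseudogene copies, which held at most 21 counts together in any library.

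The scaffold and the RING protein had lower means with ACBI1, again without passing the test. CUL2 (chr10:35008551-35090642, minus strand) had 174 and 141 CPM with DMSO and 144 and 129 CPM with ACBI1. The groups overlapped, since ACBI1 replicate 1 lay above DMSO replicate 2. Its log2 change was -0.21 (SE 0.18, adjusted p 0.468, 95% interval -0.65 to 0.23), and was -0.05 without DMSO replicate 1 and -0.35 without DMSO replicate 2. RBX1 (chr22:40951347-40973309, plus strand) had 15.01 and 14.90 CPM with DMSO and 12.2 and 11.1 CPM with ACBI1. The groups did not overlap, and the log2 change of -0.36 (SE 0.20, adjusted p 0.256) had a 95% interval from -0.83 to 0.12.

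Of the E2 enzymes, CDC34 came nearest to the threshold. CDC34 (chr19:531712-542092, plus strand) had 70.9 and 61.0 CPM with DMSO and 96.0 and 101 CPM with ACBI1. Both ACBI1 libraries lay above both DMSO libraries, and the means were 65.9 ± 6.98 and 98.6 ± 3.63 CPM (SD, n = 2). This was a 1.49-fold difference, a log2 change of 0.58 (SE 0.16, 95% interval 0.19 to 0.97) with an edgeR adjusted p of 0.0558. The outcome depended on the processing. Of 7 alternatives on all 4 libraries without a replicate term, 4 called CDC34, and the adjusted p-values spanned 0.0301 to 0.0841. Beside DESeq2 these were scaling by library size only, which called 18.9% of all genes, no filter on low counts (16.8%) and a mean of at least 5 CPM (22.9%). Scaling by DESeq2's size factors (17.5%) and an offset for GC content and length (17.6%) did not call it, nor did edgeR at a threshold of 0.01 (4.09%). A term for the replicate number called it alone (41.3% of all genes) and with the offset (40.2%). Its log2 change stayed between 0.48 and 0.69 with 1 library left out, and none of those 4 fits called it or another member (19.8% of all genes called without DMSO replicate 1, 12.1% without DMSO replicate 2, 8.78% without ACBI1 replicate 1 and 11.1% without ACBI1 replicate 2). UBE2R2 (chr9:33817567-33920404, plus strand) had 115 and 111 CPM with DMSO and 113 and 103 CPM with ACBI1. Its groups overlapped, and its log2 change was -0.07 (SE 0.15, adjusted p 0.795, 95% interval -0.44 to 0.31), or 0.02 when libraries were scaled by their size only.

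Because a ratio within a library does not depend on scaling, the share of CDC34 among both E2 genes was also taken in each library, in counts per kb of exon. It was 56.3% and 53.6% in the DMSO libraries and 64.1% and 67.4% in the ACBI1 libraries. The difference of the means was 10.8 percentage points, with SDs of 1.90 and 2.28 (n = 2 each), and the groups did not overlap. The level of the share depends on the length used. Its DMSO mean was 55.0% per kb of exon, 68.2% per kb of the median protein-coding transcript and 36.8% in raw counts. Of 9 such within-library quantities compared, this share and the ratios of ELOB and of CDC34 to CUL2 had no overlap between groups. The share and the ratio of CDC34 to CUL2 both use the CDC34 count, so they are not separate results. In CPM, the groups did not overlap for 63.2% of all tested genes, and no such percentage was taken for ratios. An exact two-sided permutation test of 2 against 2 libraries gave each of the 3 quantities without overlap a p of 0.33. That is the smallest the design allows (0.667 adjusted over the 9), so the test cannot reach the threshold.

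The stretches of DNA just before the starts of these E2 genes are shown because CDC34 and UBE2R2 encode closely related enzymes and their transcripts gave the highest log2 change of the 9 and one near 0. They come from RefSeq (GRCh38.p14), run 5′ to 3′ on the plus strand, and end before the first annotated transcribed base. Capitals mark matches to GCGCA, then any base, then GCGC, on either strand, the letters of the motif of nuclear respiratory factor 1 (NRF1), a transcription factor.
CDC34, chr19:531510-531711: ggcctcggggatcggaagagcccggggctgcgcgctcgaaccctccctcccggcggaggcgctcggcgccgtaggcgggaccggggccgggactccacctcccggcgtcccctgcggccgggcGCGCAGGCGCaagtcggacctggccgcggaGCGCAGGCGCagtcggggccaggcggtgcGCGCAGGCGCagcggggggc
UBE2R2, chr9:33816910-33817159: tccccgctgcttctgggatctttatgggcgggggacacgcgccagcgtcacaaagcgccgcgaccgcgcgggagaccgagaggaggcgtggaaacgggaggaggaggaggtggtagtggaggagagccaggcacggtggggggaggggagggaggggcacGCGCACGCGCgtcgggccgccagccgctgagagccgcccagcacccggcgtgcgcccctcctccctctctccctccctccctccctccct
The CDC34 stretch of 202 bases held 3 matches and the UBE2R2 stretch of 250 bases held 1. The CDC34 stretch (to 531711) ends next to its GENCODE start at 531712. The UBE2R2 stretch (to 33817159) ends before the RefSeq start, further upstream of its GENCODE start at 33817567. The stretches are thus placed differently relative to the GENCODE starts. In windows of 250 bases before the start, RefSeq gave 9 windows for 7 of the 9 members, and 3 of the 9 held the motif, those of CDC34, UBE2R2 and RBX1, against 5.07% of 35116 windows over all genes. The GC box (GGGCGG on either strand) was in 7 of the 9 windows, against 42.6% of all windows, and the E-box CACGTG was in 1, that of RBX1, against 6.34%. The searched motifs were not set to exclude overlap with each other, and a match is a description of the letters only. The GC content of the 9 windows ranged from 44.4% to 83.2%, with the CDC34 window the highest.

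The modifier NEDD8 and the exchange factor CAND1 had overlapping groups. NEDD8 had 11.6 and 14.7 CPM with DMSO and 13.9 and 14.6 CPM with ACBI1, a log2 change of 0.12 (SE 0.21, adjusted p 0.740, 95% interval -0.40 to 0.64). Without DMSO replicate 1 it was -0.04, and without DMSO replicate 2 it was 0.30. Exons of other genes, among them the read-through gene NEDD8-MDP1, cover 76.6% of the coding length of NEDD8. NEDD8-MDP1 had 0 counts in each library. Reads that fall in shared exons may be missing from the count of NEDD8, which then rests on the rest of the gene. CAND1 (chr12:67269281-67319951, plus strand) had 183 and 230 CPM with DMSO and 197 and 229 CPM with ACBI1. The replicates of an arm differed more than the arms did, with a log2 change of 0.05 (SE 0.19, adjusted p 0.894, 95% interval -0.42 to 0.51). Its sign turned without DMSO replicate 1 (-0.11) and without ACBI1 replicate 2 (-0.07).

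**Figure D2:**
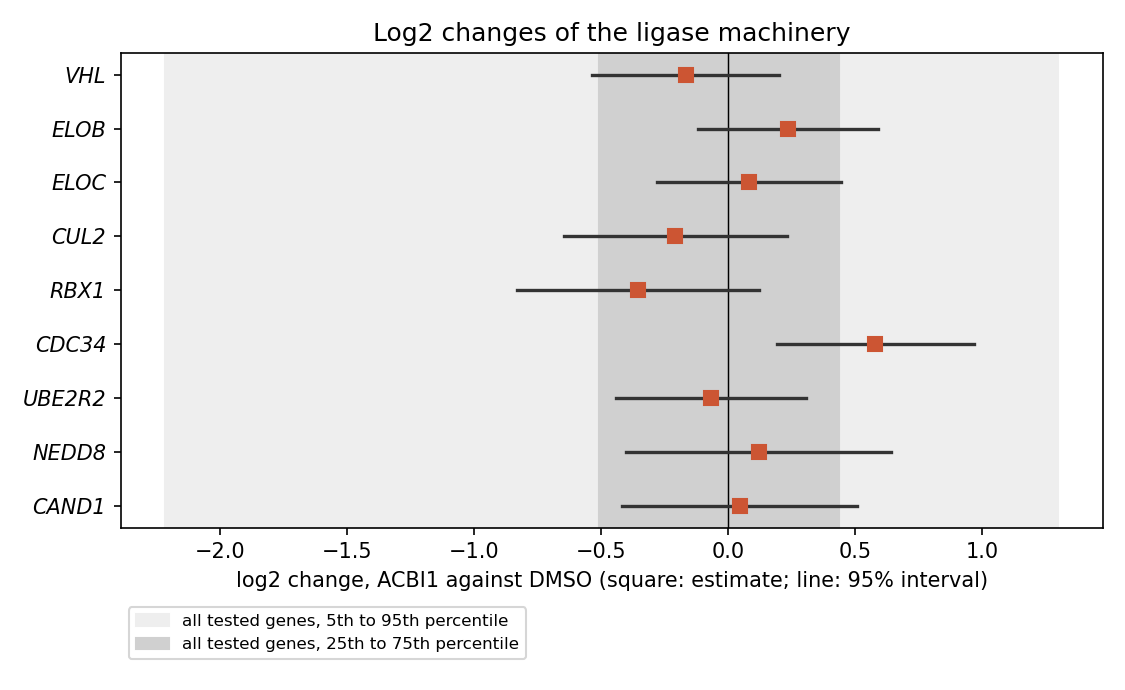
Log2 change of each member, ACBI1 against DMSO (squares), with its 95% interval (lines), over the range of log2 changes of all tested genes (pale band, 5th to 95th percentile, -2.21 to 1.30; dark band, 25th to 75th percentile, -0.51 to 0.44). The interval of CDC34 (0.19 to 0.97) does not include 0, while those of the other members do.

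Levels between genes can be compared only per length. Per kb of all annotated exons joined, ELOB was highest in DMSO cells at 60.3 ± 1.13 CPM per kb (SD, n = 2). CDC34 (34.0 ± 3.60), VHL (33.3 ± 0.143) and CUL2 (30.6 ± 4.54) followed, with the VHL mean inside the spread of CDC34 and of CUL2. The mean of UBE2R2 (27.7 ± 0.818) lay inside the range of CUL2. CAND1 was at 15.1 ± 2.39 and ELOC at 7.69 ± 0.195 CPM per kb, followed by RBX1 at 4.84 ± 0.0242 and NEDD8 at 3.38 ± 0.560. Exons of other genes cover 76.6% of the coding length of NEDD8, so its level and its ratio to CUL2 may be too low. The order was the same with ACBI1. It depends on the length used: per kb of the median protein-coding transcript, CAND1 moved from the sixth to the third place and RBX1 was last. The ratio of VHL to CUL2, per kb of exon, was 0.989 and 1.21 in the DMSO libraries and 1.03 and 1.22 in the ACBI1 libraries. Per kb of median coding transcript it was 1.06 and 1.30 with DMSO and 1.10 and 1.31 with ACBI1. The gap between the replicates of an arm was wider than the gap between the arms. The ratio of CDC34 to CUL2 was 1.08 and 1.15 with DMSO and 1.77 and 2.08 with ACBI1.

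**Figure D3:**
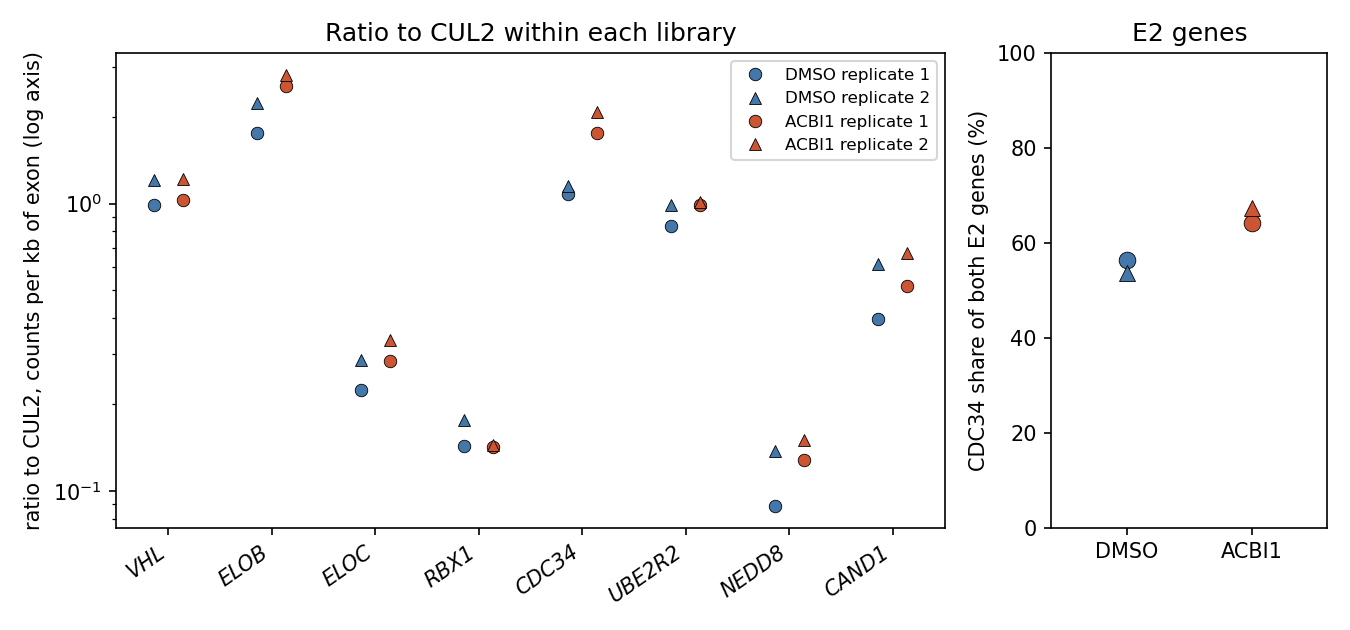
Left, ratio of each member to CUL2 in counts per kb of exon within each library, on a log axis; right, share of CDC34 among the counts per kb of CDC34 and UBE2R2, in percent. Circles are replicate 1 and triangles replicate 2; VHL lies between 0.989 and 1.22, and the CDC34 share is 53.6% to 56.3% with DMSO and 64.1% to 67.4% with ACBI1.

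The genes around the ligase were taken as 15 lists with 174 genes, of which 163 could be tested; 7 were called higher and 15 lower, 13.5% in all, where 6.75% of all tested genes were called higher and 10.6% lower. By edgeR with the filter on low counts, the enzymes that attach and remove NEDD8 had no call. For the 10 neddylation enzymes the median log2 change was 0.09, and the smallest p-values belonged to UBE2M, an E2 for NEDD8 (log2 change 0.51, edgeR adjusted p 0.108), and NAE1, a subunit of its activating enzyme (0.48, adjusted p 0.170). NAE1 was at 0.28 without DMSO replicate 2. The 12 genes of the COP9 signalosome, which takes NEDD8 off cullins, with the deneddylase SENP8 and the CAND1 paralog CAND2, also had a median of 0.09, with COPS7B at 0.41 (adjusted p 0.108) and COPS7A at 0.61 (adjusted p 0.126). COPS7A was called with no filter on low counts (adjusted p 0.0264) and was at 0.33 without ACBI1 replicate 1.

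Downstream of the ligase, the 4 ubiquitin genes, 14 genes of the proteasome core and 18 of its cap had no call. Their median log2 changes were -0.09, -0.12 and -0.03, and that of the cap was 0.06 when libraries were scaled by size only. Over these lists and those of neddylation, the COP9 signalosome and the chaperonin, edgeR called 0 of 66 genes, beside 17.4% of all tested genes. An unadjusted p under 0.05 was found for 6, beside 33.9% of all tested genes. DESeq2 called 2 (23.5% of all genes), limma-voom 1 (17.3%) and edgeR with no filter on low counts 3 (16.8%). With a term for the replicate number edgeR called 14 (41.3% of all genes), and 15 with the offset for GC content and length too (40.2%). The polyubiquitin gene UBB had 400 and 474 CPM with DMSO and 264 and 310 CPM with ACBI1, a log2 change of -0.61 (edgeR adjusted p 0.0744). The lowest p-values of the core were those of PSMA4 (-0.51, adjusted p 0.177) and PSMA3 (-0.38, adjusted p 0.191). Without DMSO replicate 1 they were at -0.17 and -0.20, and without DMSO replicate 2 at -0.78 and -0.54, where PSMA4 was called (adjusted p 0.0408). In the cap they were PSMD12 (-0.47, adjusted p 0.141) and PSMD6 (-0.42, adjusted p 0.196), at -0.26 and -0.25 without DMSO replicate 1, and PSMD6 was also at -0.26 without ACBI1 replicate 2. The 8 subunits of the chaperonin that folds VHL had log2 changes from 0.24 to 0.59 with a median of 0.37, all above 0 and none called. TCP1 was the nearest (275 and 247 CPM with DMSO, 392 and 394 CPM with ACBI1, adjusted p 0.0586), and 5 of the 7 alternatives called it; for CCT6A the log2 value was 0.44 (adjusted p 0.182) over all libraries and 0.26 without DMSO replicate 2. Of 5 genes of the p97 segregase, which pulls ubiquitinated proteins apart, UFD1 rose from 20.9 and 21.4 CPM to 34.5 and 34.0 CPM, a log2 change of 0.70 (adjusted p 0.0318). No fit with 1 library left out called UFD1, although its log2 change stayed between 0.68 and 0.71.

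**Figure D4:**
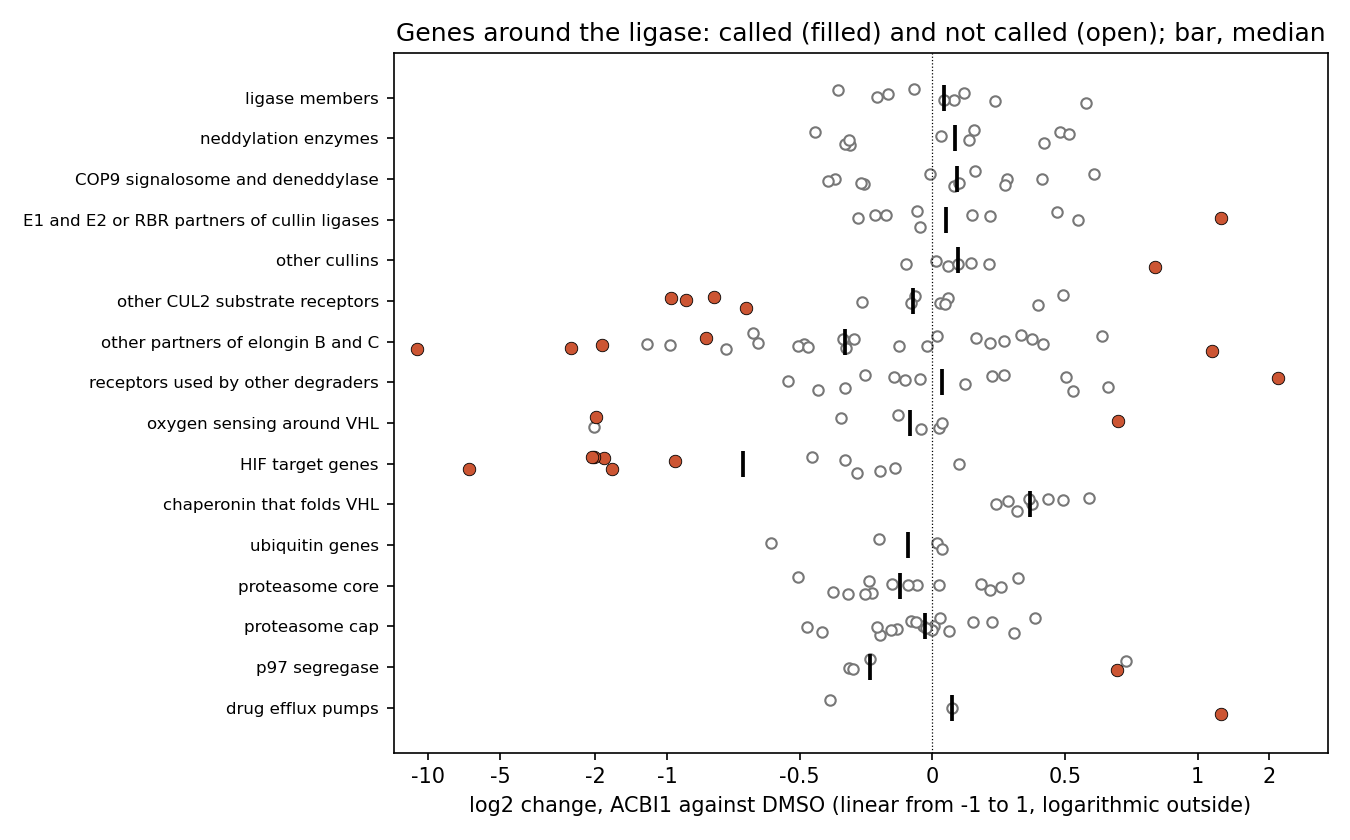
Log2 change of each tested gene, ACBI1 against DMSO, by list (linear from -1 to 1 and logarithmic outside); filled points are genes called by edgeR, open points are not called, and bars are medians. The ligase members lie between -0.36 and 0.58 with no filled point, and the HIF targets have the lowest median, -0.71.

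Other parts of the cullin family had single calls, 1 of 7 other cullins and 1 of 10 partner enzymes. These were 14.3% and 10% of the lists, beside 17.4% of all tested genes. Of 7 other cullins, CUL4A, the scaffold of the ligase that holds DDB1, rose from 81.8 and 63.3 CPM to 138 and 122 CPM (log2 change 0.84, edgeR adjusted p 0.0325); the list's median was 0.10. Without DMSO replicate 2, ACBI1 replicate 1 or ACBI1 replicate 2 it lost its call, with log2 changes from 0.67 to 1.04 over the fits that left out 1 library. Of 10 ubiquitin-activating enzymes, other E2 enzymes and RBR ligases that work with cullins, UBE2D4 rose from 19.5 and 15.1 CPM to 45.2 and 37.6 CPM (log2 change 1.26, adjusted p 0.0134), and kept its call with each library left out. Exons of other genes on the opposite strand cover 15.5% of its exonic length and 30.4% of its coding length. The strand setting of the counting is not given, so part of its reads may be missing or foreign. The list's median was 0.05.

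Several receptors that share CUL2 with VHL were lower with ACBI1. Of 12 tested substrate receptors of CUL2 other than VHL, 4 were called lower and 0 higher by edgeR. Over all tested genes, 10.6% were called lower and 6.75% higher. The log2 change was above 0 for 5 of the 12 and below 0 for 7. The median log2 change was -0.07, or 0.01 when libraries were scaled by size only. FEM1C, which reads C-terminal degrons, fell from 44.8 and 45.1 CPM to 23.8 and 21.6 CPM, a log2 change of -0.99 (SE 0.16, edgeR adjusted p 0.0128). ZER1, which reads N-terminal glycine, fell from 68.0 and 80.3 CPM to 41.8 and 36.1 CPM, a log2 change of -0.93 (SE 0.17, adjusted p 0.0192). APPBP2 fell from 40.6 and 55.7 CPM to 25.2 and 29.2 CPM, a log2 change of -0.82 (SE 0.21, adjusted p 0.0439). KLHDC2, which reads C-terminal diglycine, fell from 74.0 and 81.0 CPM to 49.8 and 45.5 CPM, a log2 change of -0.70 (SE 0.15, adjusted p 0.0303). The groups did not overlap in 8 of the 12 receptors, beside 63.2% of all tested genes. These 4 genes were picked by their calls, so their own lack of overlap adds nothing. Whether they differ from VHL in response was not tested. FEM1C and ZER1 lost their call without ACBI1 replicate 2, and APPBP2 and KLHDC2 without DMSO replicate 2 and without either ACBI1 library. APPBP2 also lost its call when libraries were scaled by size only (adjusted p 0.0570) and with the offset for GC content and length (0.0511), which left 3 called. Exons of NEMF on the opposite strand cover part of KLHDC2, 44.0% of its exonic length in all.

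**Figure D5:**
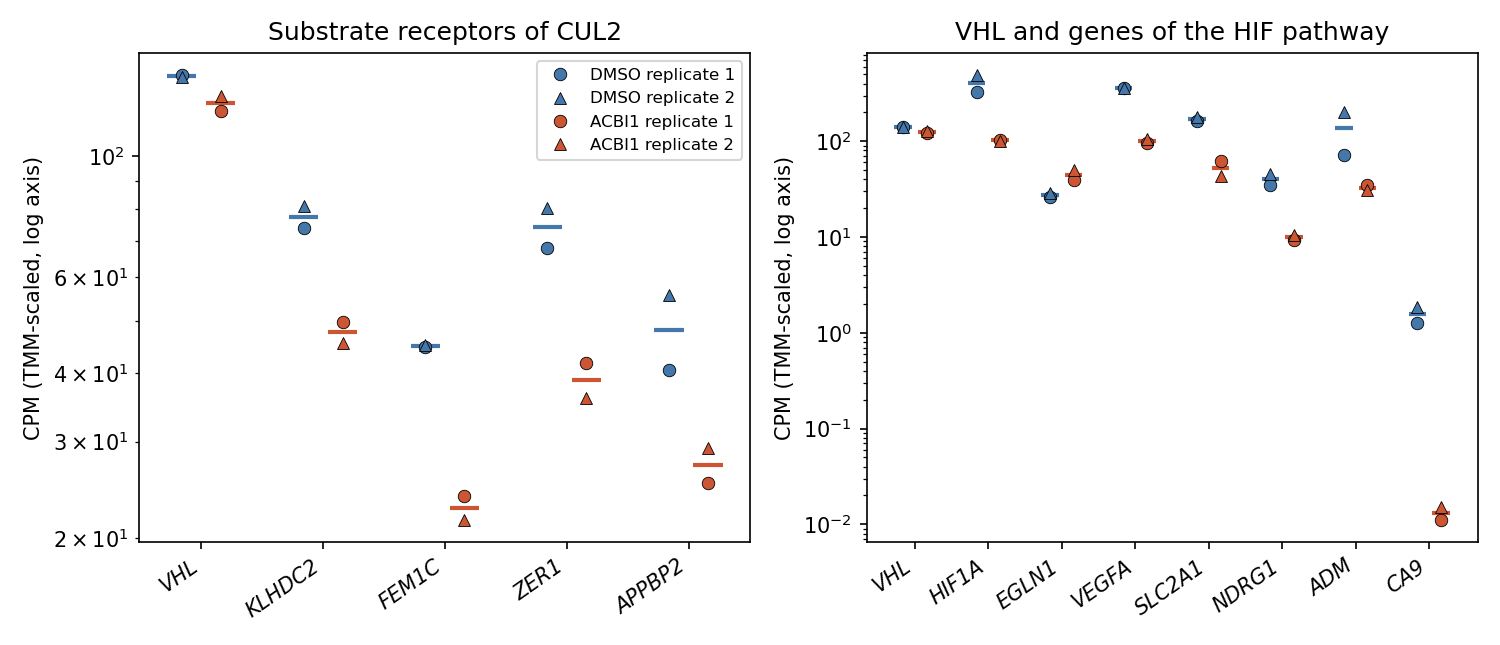
Levels in CPM on log axes, by library (circles, replicate 1; triangles, replicate 2; bars, means). Left, VHL and the 4 other receptors of CUL2 that were called lower; right, VHL beside genes of the HIF pathway, of which HIF1A, VEGFA, SLC2A1, NDRG1, ADM and CA9 were lower and EGLN1 higher with ACBI1.

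Elongin B and C also serve receptors that use CUL5, and elongin A. Of 26 tested genes among 35 such partners, 1 was called higher and 4 lower, 19.2% in all beside 17.4% of all tested genes, with a median log2 change of -0.33. ASB2 had 19.8 and 74.2 CPM with DMSO and 3 counts in all with ACBI1, so the ratio was 2344 (exact 95% limits for counting error 802 and 11370), and its fitted log2 change was -11.13 (edgeR adjusted p 0.00346). Leaving out DMSO replicate 2 gave -9.88, and leaving out DMSO replicate 1 gave -11.78. SPSB1 fell from 46.2 and 53.7 CPM to 14.1 and 13.2 CPM (log2 change -1.87, adjusted p 0.00321). SOCS1, a brake on cytokine signalling, fell from 3.08 and 7.35 CPM to 1.02 and 0.778 CPM (-2.53, adjusted p 0.0230), and lost its call without ACBI1 replicate 2. SOCS7 rose from 40.6 and 30.1 CPM to 80.3 and 76.8 CPM (1.15, adjusted p 0.0146).

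The natural substrate of VHL was examined last. HIF1A, which encodes 1 of the HIF alpha subunits that VHL recognises, fell from 325 and 489 CPM to 103 and 101 CPM, a log2 change of -1.99 (SE 0.24, edgeR adjusted p 0.00636), and was called with each library left out. EGLN1, the hydroxylase that prepares HIF for VHL, rose from 26.1 and 28.5 CPM to 39.2 and 49.6 CPM (log2 change 0.70, adjusted p 0.0479). That call is marginal, since 2 of 7 alternatives and all 4 fits with a library left out lost it. Of 8 tested genes of oxygen sensing these were the 2 calls, 25% beside 17.4% of all tested genes, and the median was -0.09. EPAS1, named here after its values were seen, had 24.7 and 25.9 CPM with DMSO and 9.91 and 2.52 CPM with ACBI1 and was not called (log2 change -2.02, adjusted p 0.0636), though 3 of 7 alternatives and all 4 fits with a library left out called it, with -3.33 without ACBI1 replicate 1.

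Of 12 HIF target genes 6 were called lower and 0 higher, beside 10.6% and 6.75% of all tested genes, with a median log2 change of -0.71. The endothelial marker PECAM1 was lower in the same libraries (log2 change -10.09), and its part in this result was not tested. Scaling by library size only called 5 of the 12 (18.9% of all genes). The median of the 12 ranged from -0.92 to -0.56 with 1 library left out. VEGFA, an angiogenic factor, fell from 356 and 362 CPM to 96.6 and 104 CPM (log2 change -1.84, adjusted p 0.00301). NDRG1 fell from 35.1 and 45.8 CPM to 9.37 and 10.5 CPM (-2.02, adjusted p 0.00428). ADM had 71.2 and 203 CPM with DMSO and 34.9 and 30.7 CPM with ACBI1 (-2.06, adjusted p 0.0332), or -1.12 without DMSO replicate 2, and was not called without either ACBI1 library. CA9, a carbonic anhydrase, was counted 237 times with DMSO and 2 times with ACBI1 (ratio 120, exact 95% limits for counting error 32.8 and 995), and 38.5% of its exonic length is overlapped by ARHGEF39. The glycolytic targets PGK1 and LDHA, at -0.28 and -0.14, were not called (adjusted p 0.290 and 0.635).

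The degrader's own targets had no call: SMARCA4 had 284 and 216 CPM with DMSO and 414 and 398 CPM with ACBI1 (edgeR adjusted p 0.0583, called by 5 of 7 alternatives), SMARCA2 had 22.8 and 24.4 against 17.5 and 18.4 CPM (adjusted p 0.163), and PBRM1 had 55.0 and 45.3 against 55.6 and 51.6 CPM (adjusted p 0.734). ACBI1 acts on proteins, so these transcripts do not check the labels. Among the epithelial markers, the keratins KRT8, KRT18 and KRT19 were lower with ACBI1 (log2 changes -1.42, -1.14 and -2.51, edgeR adjusted p 0.00753, 0.0136 and 0.0171). KRT18 lost its call without ACBI1 replicate 1 (-0.97). EPCAM went the other way, at 2.78 to 15.6 CPM with a log2 change of 1.32, and was not called. CDH1 was below 0.223 CPM in every library, so the epithelial markers were not uniform. Of the lung markers NKX2-1 had 0 counts in each library, and SFTPB and NAPSA were below 0.237 CPM. The leukocyte, hepatocyte and muscle markers were at most 0.101 CPM in any library. The endothelial markers were the exception: PECAM1 had 12.2 and 48.1 CPM with DMSO and 0.0112 and 0.0458 CPM with ACBI1, and VWF had 47 counts with DMSO and 0 with ACBI1, at least 15.8-fold higher with DMSO against a floor of 3 counts over the group. Over the 8 markers of other cell types, CD3E was at 0 in every library, 2 were called lower, and the summed level was 12.7 and 48.7 CPM with DMSO and 0.201 and 0.153 CPM with ACBI1.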

How the data were processed

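RNA-seq had been done on 4 libraries of H1792 cells. The deposited values are raw counts per gene symbol, 1 file per library; the submitters' processing notes name TopHat2 2.1.1, HTSeq 0.11.0 and the build hg38. The annotation and strand setting are not given in the sources used here. The 5 lines for reads given to no gene were left out; ambiguous reads were 4.41% to 5.07% of the reads listed and reads with several alignments 3.52% to 5.44%. Group and replicate came from the sample titles.

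Genes were filtered with filterByExpr (minimum count 10, total 15), scaled by TMM and compared by edgeR 4.0.16 under R 4.3.3 (quasi-likelihood, treatment alone, two-sided, Benjamini-Hochberg over 19159 genes, threshold 0.05); the common biological coefficient of variation was 0.244. DESeq2 1.42.0 and limma 3.58.1 were alternatives. Intervals of log2 changes are 95% intervals from the moderated degrees of freedom; intervals and floors on counts cover counting error only. GENCODE 29 gave positions, lengths and overlaps, and GC content and length for 95.6% of tested genes. On simulated counts of this comparison (19159 genes, 200 changed), edgeR found 27.6% of the genes given a log2 change of 1 and 95.6% of those given 2, beside 7 false calls. Every simulated gene was given the common coefficient of variation of 0.244, where real genes each have their own. In the data 17.4% of tested genes were called, a larger share than the simulation changed. The simulated percentages therefore do not give the power for the members. The libraries of an arm differed by more than sampling noise (chi-square per degree of freedom 160 and 103).

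The members and lists were chosen with earlier results of these data known. Named are all members and degrader targets, for each other list up to 4 called genes, by size of change, or the 2 with the smallest p where none was called, and the 3 genes nearest to VHL in pattern, of which 1 is not reported here; PGK1, LDHA, SLC2A1, EPAS1, BIRC2, CRBN and ABCB1 fall outside this rule and were chosen after their values were seen, and the remaining markers are named for the check of cell type.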

Additional observations from a re-analysis of the deposited data

How the results depend on the processing

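The number of members called, 0, became 1 (CDC34) when libraries were scaled by size only (adjusted p 0.0316), with no filter on low counts (0.0386), with a mean of at least 5 CPM (0.0451), with DESeq2 (0.0301), in the replicate block fit (0.00419) and with the block and the GC content and length offset together (0.00960). It was 0 in each fit with 1 library left out. Whether equal replicate numbers share a batch is not in the labels, and with 2 pairs the data do not settle it; across genes, the differences between replicates 1 and 2 of the arms correlated at 0.442. The replicate block raised the calls over all genes from 3331 to 7909, and those in the context lists from 22 to 55; with the offset too, they were 7695 and 57. No filter on low counts gave 5518 calls, and a threshold of 0.01 gave 783, with 7 in the context lists. With 1 library left out, calls ranged from 1682 to 3799, and those in the context lists from 13 to 23; of the 22, 20 were still called without DMSO replicate 1, 15 without DMSO replicate 2, 13 without ACBI1 replicate 1 and 12 without ACBI1 replicate 2, and fewer samples were fitted, with the lone library taken to vary like the others. The median log2 change of the members was 0.13 under scaling by library size only and ranged from -0.040 to 0.12 with 1 library left out. The CDC34 share differed by 11.0 percentage points in raw counts, by 8.91 per kb of median coding transcript, an alternative chosen after seeing the data, and by 9.15 to 12.4 with 1 library left out. Summing NEDD8 with NEDD8-MDP1 changed nothing, since the latter had 0 counts. For 50 named genes, 647 values under alternatives held 46 calls gained, 29 lost and 0 called changes with a turned sign. The cause of these shifts was not tested.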

Other observations

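Receptors used by other degraders and efflux pumps were read out as well. Of 14 genes for such receptors and their partners, 1 was called: BIRC3, an inhibitor of apoptosis, rose from 136 and 109 CPM to 746 and 356 CPM, a log2 change of 2.16 (edgeR adjusted p 0.0154), and kept its call with each library left out. Its paralog BIRC2, named after its values were seen, had 108 and 98.4 CPM against 193 and 133 CPM and was not called (adjusted p 0.0889). CRBN, the receptor that other PROTACs use, had 22.3 and 21.0 CPM with DMSO and 20.2 and 16.1 CPM with ACBI1, a log2 change of -0.25 (SE 0.19, adjusted p 0.408). The median log2 change of the 14 was 0.04, and the 1 call was 7.14% of them, beside 17.4% of all tested genes.

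Of 3 drug efflux pumps, ABCG2 rose from 7.64 and 5.85 CPM to 19.2 and 12.9 CPM, a log2 change of 1.25 (edgeR adjusted p 0.0336), and lost its call without DMSO replicate 2 and without ACBI1 replicate 1. ABCB1, the pump known for lowering the response of cell lines to PROTACs, had 4.96 and 7.06 CPM with DMSO and 4.80 and 7.85 CPM with ACBI1 (log2 change 0.07, adjusted p 0.906). The median of the 3 was 0.07, and 1 of the 3 was called, beside 17.4% of all tested genes.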
